A study of Mus musculus with 4 samples.

Results

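The cytosolic ribosomal protein genes are the genes whose symbols begin with Rpl (large subunit) or Rps (small subunit), with the S6 kinase genes and pseudogenes left out. On the MG_U74Av2 mouse expression array, 49 probe sets were paired with exactly 1 such gene in the platform annotation. They stood for 35 genes, 17 Rpl and 18 Rps, among 8251 genes with a probe set of their own. Each gene was represented by its brightest probe set over the 4 arrays of the study.

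Mouse total RNA was measured on 4 arrays. The embryoid body group held 2 of them, with the titles aggregation and suspension, of R1 embryonic stem (ES) cells kept as unattached clusters for 48 hours in DMEM with LIF and beta-mercaptoethanol. R1 is a mouse ES cell line in long use, and LIF is the cytokine that holds ES cells in the undifferentiated state. The adherent group was 1 array of R1 cells on gelatin, grown under standard conditions for undifferentiated cells with the same medium and supplements. The neurosphere group was 1 array of neural stem and progenitor cells growing as floating clusters, taken from the telencephalon (forebrain) at E13.5 and kept in DMEM F12 with FGF2. Contamination of the neurospheres by astrocytes, oligodendrocytes and other glia is recorded in their labels. No sample carried a stated mutation or transgene. The labels give both embryoid body arrays 1 sample identifier and do not say that they came from separate cultures, so the p-values reflect no more than the spread of this pair, and that spread may be technical.

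A ribosome joins a small subunit, which reads the messenger RNA, to a large subunit, which forms the peptide bond. Most ribosomal proteins are needed in equal amounts, since each ribosome holds the same set. Messenger RNAs of these proteins carry a terminal oligopyrimidine (TOP) tract, a run of C and T letters at the transcription start through which the kinase mTOR and the protein LARP1 control their translation. A few ribosomal protein genes have a further, retained copy (a paralogue) with a narrower range of tissues. Ribosome assembly in the nucleolus, driven in part by Myc proteins, is high in growing cells such as ES cells and neural progenitors.

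The arrays had been deposited on different scales, with trimmed means of 32.95 for aggregation, 1501 for suspension, 1501 for adherent cells and 29.86 for neurospheres. Each was rescaled to a trimmed mean of 500, and signals below are on that scale. The median signal of all probe sets was 178.1 on the adherent array and between 224.7 and 241.9 on the other arrays, and the brightest 0.1% of probe sets began at 26855 on the adherent array and at 41241 or more on the others. ES cell markers fitted the labels: all 7 tested were lower in neurospheres, among them the pluripotency factor Pou5f1 at 7911, 10547 and 10687 on the aggregation, suspension and adherent arrays and 51.3 on the neurosphere array. Of 5 neural progenitor markers tested, 4 were higher in neurospheres, led by the fatty acid binding protein gene Fabp7 at 28.2, 67.3, 15.5 and 41867 in the same order.

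The start regions of a few members are shown because the TOP tract is the sequence feature that joins these genes. Each line holds 30 bases of the sense strand from RefSeq (GRCm38.p6), 15 before the annotated start and 15 from it on. Capitals mark the pyrimidine tract, counted from a C at most 5 bases before or after the start. Rps18, Rps10 and Rpl7a are bright members with a marked tract of 11, 13 and 12 letters. They do not stand for all bright members, since a tract was found in 7 of 23 promoters of bright members. In Rpl7a the marked tract begins at the limit of the search, and C and T letters also run on before it. Rps19 and Rpl41 are members that passed the test between neurospheres and R1 cells, and Rpl39 and Rpl39l are a paralogue pair. Rps19 has several annotated starts, and the first is shown. The starts shown for Rpl7a and Rpl39l differ from the start annotated for the gene as a whole.
Rps18, chr17:33955651-33955680, minus strand: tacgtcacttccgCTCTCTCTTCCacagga
Rps10, chr17:27635230-27635259, minus strand: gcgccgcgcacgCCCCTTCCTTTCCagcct
Rpl7a, chr2:26910792-26910821, plus strand: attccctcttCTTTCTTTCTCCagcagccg
Rps19, chr7:24884577-24884606, plus strand: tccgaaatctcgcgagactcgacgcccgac
Rpl41, chr10:128549154-128549183, minus strand: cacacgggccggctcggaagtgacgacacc
Rpl39, chrX:37085208-37085237, minus strand: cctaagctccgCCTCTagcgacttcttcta
Rpl39l, chr16:10170213-10170242, plus strand: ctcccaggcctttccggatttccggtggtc

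RefSeq promoters were matched by symbol for 28 of the 35 genes, 7 of them with several starts, which gave 37 promoters. A tract, counted as a C within 5 bases of the start followed by at least 4 letters C or T on the sense strand, stood in 32.4% of the member promoters and in 18.3% of all 32851 promoters of the table. No tract at the annotated base says only that these letters are not there, since the annotated start need not be the base where most transcripts begin. Over the 250 bases before and 50 after the start, on both strands, the letters CCGGAAG, bound by ETS factors such as GABP, stood in 32.4% of member promoters and 8.86% of all. The letters AAGATGG, bound by YY1, stood in 24.3% and 6.34%, and the TATA box letters TATAAA in 10.8% and 13.6%. These shares are descriptions and were not tied to the signals.

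Many ribosomal protein genes were among the brightest genes of every culture. A group of 20 of the 35 members, 10 Rpl and 10 Rps, had a mean log2 signal of 12 or more. Of the 6843 features tested, 218 others did, with probe sets shared by ribosomal protein genes and other genes left out. None of the 20 lay below percentile 96.0 of its array, and 16 were above the 99th percentile on all 4 arrays. These ranks follow in part from the choice of the 20 by brightness on the same arrays. Rpl41, which encodes a very short, basic peptide of the large subunit, was the brightest member, at 99821 on the aggregation array, 78955 on the suspension array, 37366 on the adherent array and 103276 on the neurosphere array. Rps28, a small-subunit protein near the messenger RNA exit, followed with 84940, 70687, 33181 and 53606. Signals of different probe sets depend on their probes, so this order is one of brightness and not of transcript number.

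The member probe sets took 7.08% of the summed signal on the aggregation array and 6.88% on the suspension array, 4.63% on the adherent array and 5.51% on the neurosphere array. Both embryoid body arrays were thus highest, and the adherent array was lowest. In bulk RNA, fewer cells of a type and less RNA per cell cannot be told apart.

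The other 15 members were dimmer, and 10 of them reached the array median on at least 1 array and were tested. Rpl32, Rpl35a, Rpl39, Rps14 and Rps15 stayed below the median of all 4 arrays and were not tested. Rpl32 had signals between 10.6 and 38.9, Rpl35a between 41.7 and 91.5, Rps14 between 21.7 and 134.8 and Rps15 between 21.6 and 162.9. These genes encode core ribosomal proteins, and a low signal of 1 probe set is no measure of how much of a transcript a cell holds. Near the limit between the bright and the dimmer members stood Rpl13a, with a mean log2 signal of 12.05, and Rps4l, with 11.65.

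**Figure D1:**
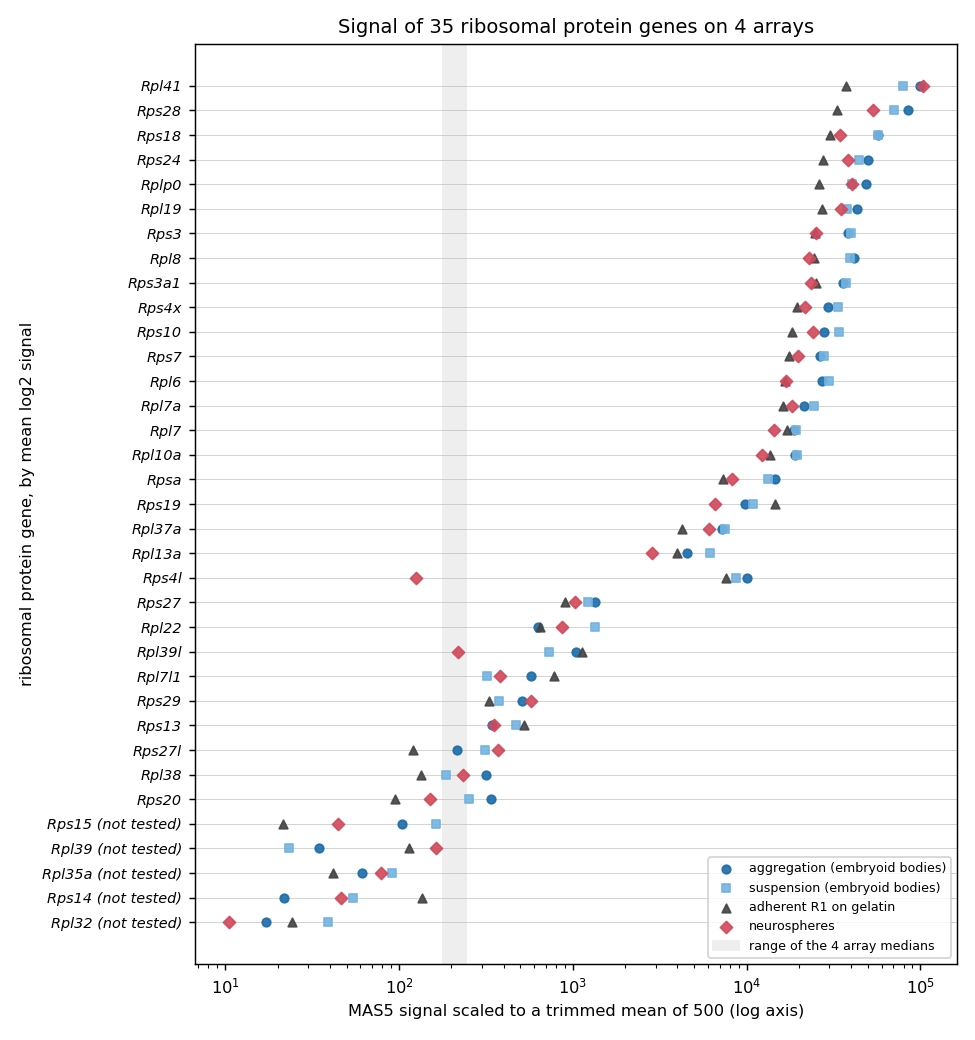
Scaled MAS5 signal (log axis) of the 35 ribosomal protein genes on each of the 4 arrays, ordered by mean log2 signal; the grey band is the range of the array medians. The adherent array lies to the left of both embryoid body arrays for 19 of the 20 bright members, and the neurosphere point of Rps4l stands at 125.1 against 7593 or more in R1 cells.

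The embryoid body arrays gave close values for the members. The median difference, aggregation minus suspension, was -0.02 (log2) over the 30 tested members, and its median size was 0.19 over these and 0.14 over the 20 bright ones. For 29 of the 30 the arrays were within 2-fold of each other, while 14.3% of all 6843 features tested were at least 2-fold apart. The exception was Rpl22, a large-subunit protein that also binds RNA outside the ribosome, with 630 on the aggregation array and 1340 on the suspension array (log2 difference -1.05). Rpl7l1, Rpl38 and Rpl39l were the members furthest to the aggregation side, at 0.79, 0.68 and 0.51, and Rps27l and Rpl13a followed Rpl22 on the suspension side, at -0.47 and -0.43. Of these, only Rpl13a is a bright member. The 14.3% is not matched for brightness, since 20 of the 30 tested members are bright and few other features are.

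Neurospheres were compared with R1 cells, with the embryoid bodies and the adherent array weighted equally. Of the 30 tested members, limma called 1 higher (Rpl41) and 3 lower (Rps4l, Rpl39l and Rps19) in neurospheres at a Benjamini-Hochberg adjusted p under 0.05, and 26 passed in neither direction. Over all features, 8.20% were called higher and 11.9% lower, so the share of members called lower was close to the background and the share called higher was below it. The uncalled members lay between -0.69 and 0.94. The median member difference was -0.18, against 0.10 over all features tested and -0.35 over the 218 other features with a mean log2 signal of 12 or more. Bright Rpl and bright Rps members had medians of -0.20 and -0.24, close to each other.

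Which R1 culture was used set the direction of this median. Against the embryoid bodies alone the median member was -0.44, with 27 of 30 members below 0. Against the adherent array alone it was 0.18, with 20 of 30 above 0. The 20 bright members had medians of -0.54 and 0.17 in these comparisons. The 218 other features as bright had -0.36 and -0.29, so they too were lower in neurospheres than in embryoid bodies. Between arrays deposited on the same scale, neurospheres minus aggregation gave a member median of -0.44. Scaling moved the median against all R1 cells too. It was -0.43 with the array medians set equal, where all features had -0.13. It was 0.26 with the median member of each array set equal, where all features had 0.54. The neurosphere signal was below all 3 R1 arrays for 8 of 30 members, where 32% of all features were, and above all of them for 3 of 30, where 35.0% of all features were. Astrocyte markers summed to between 251.1 and 1039 on the R1 arrays and to 4914 in neurospheres, with 1 of 3 tested called higher, and oligodendrocyte markers to between 617.6 and 1417 and to 2013, again with 1 of 3. Neuron markers summed to between 3119 and 4668 and to 6924, with 0 of 3 called. Most of each neurosphere sum came from 1 gene: Aldoc at 4279, Sox10 at 1210 and Tubb3 at 5991. Tubb3 was already between 3069 and 4485 on the R1 arrays. The sums therefore do not measure the share of a cell type. The part of glia and neurons in the members' values was not tested.

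**Figure D2:**
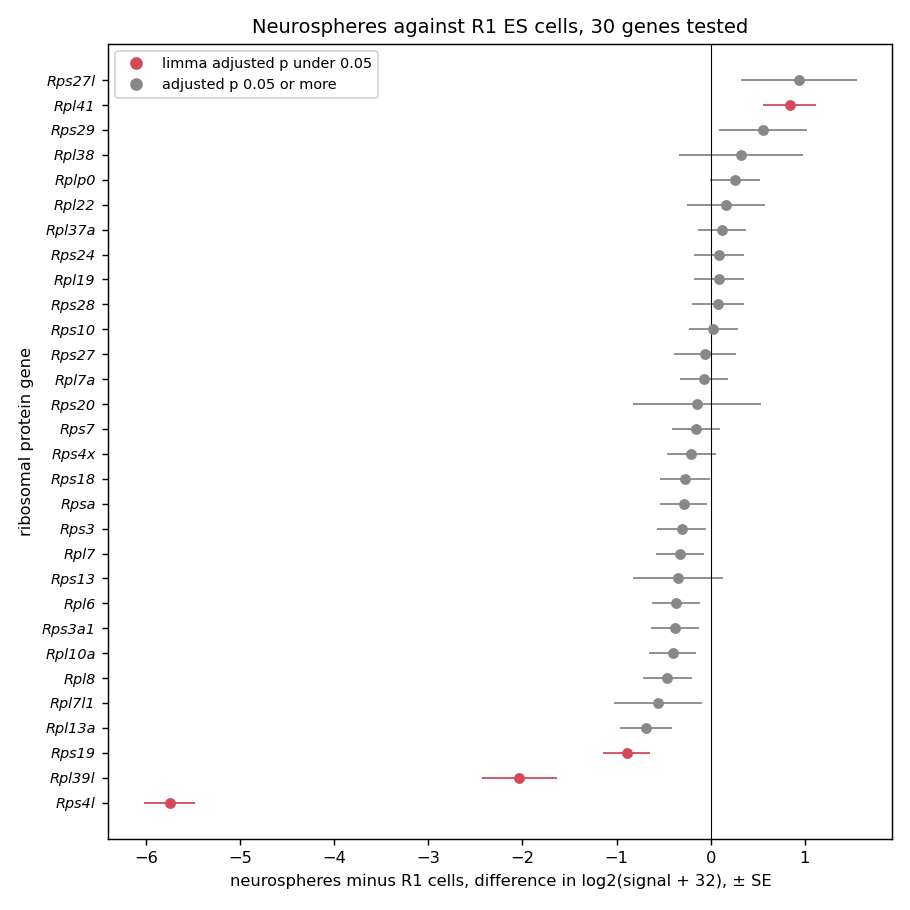
Neurospheres minus R1 cells, as a difference in log2(signal + 32) with its limma standard error, for the 30 tested members; red points have an adjusted p under 0.05. Rps4l at -5.75 and Rpl39l at -2.03 lie apart, and the other members lie between -0.89 and 0.94.

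The largest difference was in Rps4l, an autosomal, retained copy of the X-linked gene Rps4x, which encodes the small-subunit protein eS4. Rps4l had signals of 10122 on the aggregation, 8645 on the suspension and 7593 on the adherent array, and 125.1 on the neurosphere array. The R1 arrays were close to each other and the neurosphere signal was below that array's median, without overlap. The difference was -5.75 ± 0.27 (log2, SE; limma adjusted p = 2.94e-11), and it stayed between -5.90 and -5.60 against the embryoid bodies or the adherent array alone. With no detection calls, a neurosphere signal this low may be background, so the value is a lower limit on the size of the difference for this probe set. Relative to the median member of each array, Rps4l went from 0.00, -0.34 and 0.00 on the R1 arrays to -5.40 on the neurosphere array.

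The Rps4l result rests on 1 probe set. That probe set is of the class whose probes can match several transcripts, and a dim second probe set of Rps4l, at 312.5, 151.7, 103.7 and 302.9, differed by 0.86 the other way and was not called when tested in its place (adjusted p = 0.406). Rps4x itself had 29473, 33750 and 19606 on the R1 arrays and 21599 on the neurosphere array. The neurosphere value of Rps4x lay inside the R1 range, and the difference was -0.20 ± 0.26 (limma adjusted p = 0.619). The 4 other Rps4x probe sets were dim, and their signals reached 448.1 at most.

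Rpl39l is a retained copy of Rpl39, which encodes a small protein lining the exit tunnel of the large subunit; Rpl39l is best known from male germ cells. Its signals were 1046 and 725.2 on the embryoid body arrays, 1134 on the adherent array and 219.1 on the neurosphere array. All R1 arrays were above the neurosphere array, by -2.03 ± 0.40 for neurospheres minus R1 cells (limma adjusted p = 0.00119). The neurosphere signal was below the array median of 241.9, so this too is a lower limit on the size. The call was lost when the variance was moderated without an intensity trend (adjusted p = 0.0607). Rpl39 had 34.8, 23.4, 114.0 and 164.1, below the array median throughout, so the pair could not be read as an exchange of one form for the other.

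The other paralogue pairs did not pass the test. Rps27l, a copy of Rps27 induced by the p53 tumour suppressor, had 216.4, 311.9 and 120.0 on the R1 arrays and 372.5 in neurospheres, a difference of 0.94 ± 0.61 (limma adjusted p = 0.303). Rps27, a zinc-finger protein of the small subunit, had 1340, 1218, 904.9 and 1032, and its neurosphere value lay inside the R1 range. Rpl7l1, a gene related to Rpl7 with a role in ribosome assembly, had 574.3, 319.5, 776.8 and 383.7, and Rpl7 had 18744, 19353, 16983 and 14365. For Rpl7l1 the neurosphere value lay between the embryoid body arrays, and for Rpl7 it was the lowest of the 4, at a difference of -0.32 ± 0.25 (adjusted p = 0.391).

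**Figure D3:**
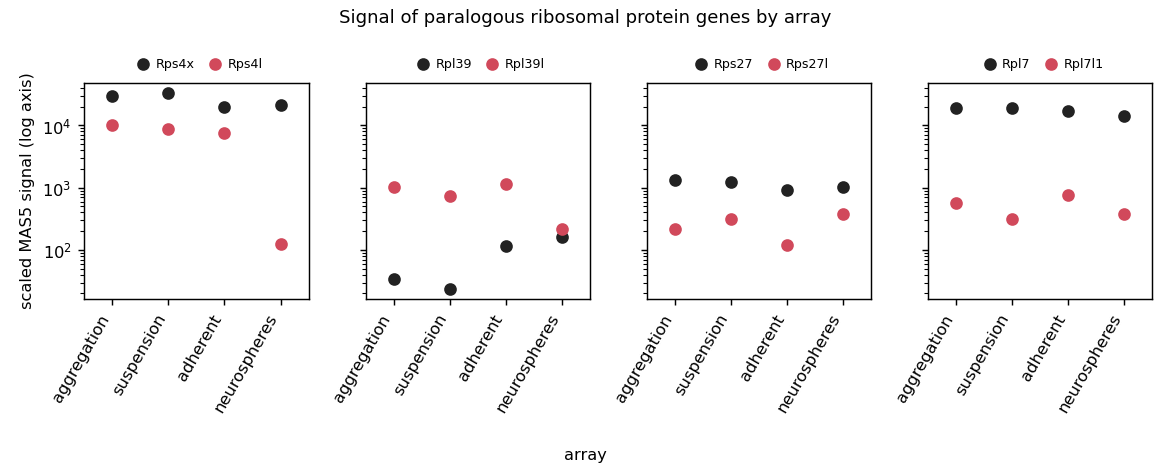
Scaled MAS5 signal (log axis) of 4 paralogous pairs on the 4 arrays, with the more widely used form in black and the other in red. Rps4l drops from 7593 or more to 125.1 in neurospheres while Rps4x stays between 19606 and 33750, and Rpl39 is below the median of each array.

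Rps19, a small-subunit protein whose mutation is the most frequent genetic cause of Diamond-Blackfan anaemia, had 9847 and 10917 on the embryoid body arrays, 14580 on the adherent array and 6606 on the neurosphere array. It was lowest in neurospheres and highest in adherent cells, an order no other bright member showed on the R1 side, since the other 19 were higher on both embryoid body arrays than in adherent cells. The difference from R1 cells was -0.89 ± 0.25 (limma adjusted p = 0.0164). It was not called against the embryoid bodies alone (-0.65, adjusted p = 0.105) with the probe set filter left out (adjusted p = 0.0547), without the intensity trend (adjusted p = 0.206) or with all R1 arrays as 1 group (adjusted p = 0.232).

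Of the 7 tested genes of a list of Diamond-Blackfan anaemia genes, Rps19 alone was called, as lower, a share near the 11.9% of all features, and the median of the list was 0.03. Rps24, Rps7, Rps10, Rps28, Rps27 and Rps29 made up the rest, with differences between -0.15 and 0.56. The brightest probe set of Rps24 was designed on the same sequence record as that of Rpl7, so its values are uncertain; its second probe set was dim, between 170.2 and 298.2.

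Rpl41 was the only member called higher in neurospheres, at 0.84 ± 0.28 (limma adjusted p = 0.0414). The signals given above show that its neurosphere value, 103276, was close to the aggregation value, 99821, and that the adherent value, 37366, was apart from the others. Against the embryoid bodies alone the difference was 0.22 (adjusted p = 0.672), and after quantile normalization it turned to -0.22 (adjusted p = 0.275). It was not called either without the intensity trend (adjusted p = 0.240), without the filter (adjusted p = 0.199) or with all R1 arrays as 1 group (adjusted p = 0.635). Its signal was the highest of any probe set on each R1 array, so the difference is taken at the top of their scale. Its probe set is of a class that can also match other transcripts.

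Rpl13a and Rpl8, both of the large subunit, were not called against all R1 cells but were against the embryoid bodies alone. Rpl13a, which also takes part in interferon-controlled translational silencing, had 4560, 6163, 3963 and 2838, lowest in neurospheres, at -0.69 ± 0.27 (limma adjusted p = 0.0871). Rpl8, a protein close to the peptidyl transferase centre, had 41583, 39489, 24579 and 22922, again lowest in neurospheres, at -0.46 ± 0.26 (adjusted p = 0.229). Against the embryoid bodies alone Rpl13a was at -0.89 (adjusted p = 0.0373) and Rpl8 at -0.82 (adjusted p = 0.0434). In that comparison the median bright member was at -0.54, and the share of all features called is not given here. Against all R1 cells, the next highest tested members after Rps27l and Rpl41 were Rps29, Rpl38 and Rplp0, at 0.56, 0.32 and 0.26. Rps29 is a zinc-finger protein of the small subunit, and Rpl38 is tied to the translation of Hox messenger RNAs.

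Rplp0, the base of the large subunit's stalk that recruits translation factors, was the only stalk gene with a probe set of its own. It had 48460 and 40690 on the embryoid body arrays, 26093 on the adherent array and 40669 on the neurosphere array. Adherent cells were lowest, and neither comparison passed the test (limma adjusted p = 0.536 for neurospheres against R1 cells and 0.227 for embryoid bodies against adherent cells). The partners of 5S ribosomal RNA, Rpl5 and Rpl11, had no probe set of their own.

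Embryoid bodies were compared with adherent R1 cells, which sets floating and attached cultures of 1 cell line side by side. With only 1 adherent array, the form of culture cannot be told apart from that array's own scale and handling. The bright members were higher in embryoid bodies in nearly every case, but no single gene passed the test. Both embryoid body arrays were above the adherent array for 25 of 30 tested members, among them 19 of the 20 bright ones, where 42.2% of all features showed this order. Both were below it for 4 members, Rpl7l1, Rps19, Rpl39l and Rps13, where 32.7% of all features were. The median member difference was 0.64, against 0.10 over all features, and the medians of bright Rpl and bright Rps members were 0.65 and 0.72.

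Limma called 0 of the 30 members in this comparison, where 0.263% of all features were called higher and 0.0877% lower. The smallest adjusted p of a member was 0.0781, and without adjustment 13 members were higher and 0 lower at p under 0.05, against 582 and 401 of the 6843 features. Rpl41 and Rps28 had the lowest adjusted p, with differences of 1.25 ± 0.30 and 1.22 ± 0.29 (limma adjusted p = 0.0781 for each). On both probe sets the adherent array was less bright than each of the other 3. Rpsa, the laminin receptor protein of the small subunit, had 14595, 13354, 7325 and 8296, a difference of 0.93 ± 0.26 (adjusted p = 0.133).

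Among the dimmer members that were tested, Rps20, a protein of the head of the small subunit, had the highest difference, 1.36 ± 0.71, from signals of 337.9, 251.5 and 94.5 on the R1 arrays. Rps27l was at 0.94 ± 0.64. At the other end of the tested members, Rpl7l1 was at -0.81 ± 0.49, Rps19 at -0.49 ± 0.26, Rpl39l at -0.37 ± 0.42 and Rps13, a small-subunit protein at the subunit interface, at -0.35 ± 0.50. Rpl7, at 0.17 ± 0.26, was the bright member with the least difference after Rps19. None of these differences passed the test in limma.

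The size of the median depended on how the arrays were scaled. It was 0.27 with the array medians set equal, where all features had a median of -0.25, and 0.14 after quantile normalization, where all features had 0.00. The 218 other features with a mean log2 signal of 12 or more had a median of 0.11. At a mean of 14 or more, the 30 other features had 0.51 and the 15 members 0.72. The brightest probe sets of the adherent array were dimmer than those of the other arrays. Members are themselves among these probe sets, with Rpl41 the brightest, so this is not a separate measure of that array's scale. How much of the members' difference the scale carries was not tested. Leaving out the aggregation or the suspension array gave medians of 0.65 and 0.60, and the first of these compares suspension with adherent cells, both deposited on 1 scale.

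The summed signal of fibroblast markers also differed, at 4218 and 3923 in embryoid bodies, 1542 in adherent cells and 2961 in neurospheres. Most of it came from the collagen gene Col1a2, at 3062, 3428, 1123 and 1943, the 1 of 4 called higher in embryoid bodies. Col3a1 was also higher on both embryoid body arrays than in adherent cells. Col1a1 and Thy1 were lower on the suspension array than on the adherent array. Endoderm markers summed to between 90.3 and 371.6 on the 4 arrays, and 0 of 1 tested was called. Their part in the members' values was not tested.

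**Figure D4:**
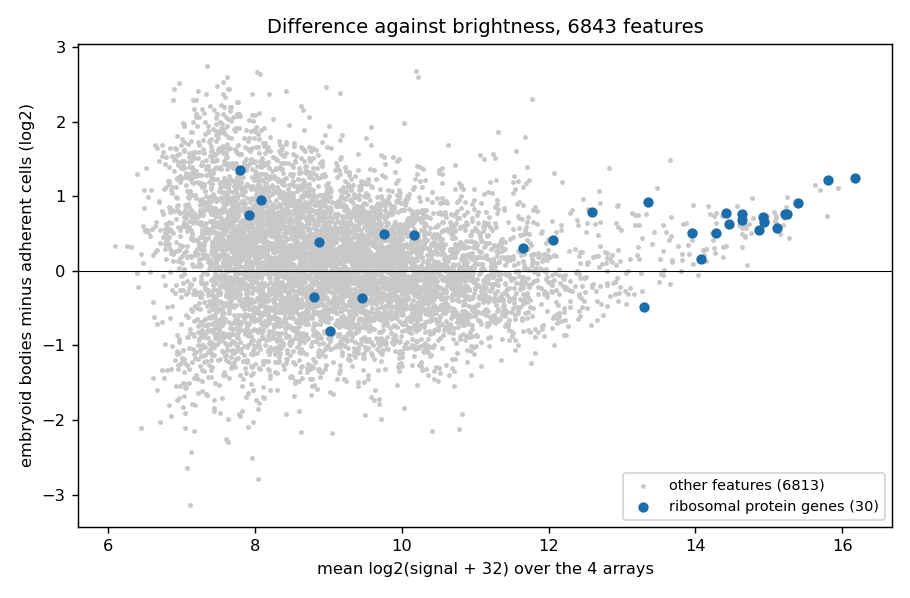
Embryoid bodies minus adherent cells (log2) against the mean log2(signal + 32) over the 4 arrays, for the 30 tested members in blue and the other features in grey. The members above a mean of 14 have a median of 0.72. The 30 other features at that brightness have a median of 0.51, with probe sets shared by ribosomal protein genes and other genes left out. The grey points include those shared probe sets.

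Genes with several probe sets gave a further reading of the same values. Of 10 such members, all probe sets shared the sign of the difference in 9 between embryoid bodies and adherent cells, and in 4 between neurospheres and R1 cells. Between embryoid bodies and adherent cells the exception was Rpl10a, whose second probe set, at 6318, 3843, 6239 and 4572, differed by -0.34. Most of the 14 further probe sets were dim. Other features with a mean log2 signal from 7 to 8 had a median of 0.32 in that comparison, so a shared sign there says little. Rps28 had a second bright probe set, at 50286, 42578, 25498 and 30714, with differences of 0.86 between embryoid bodies and adherent cells and -0.16 between neurospheres and R1 cells. A further 39 probe sets matched a ribosomal protein gene together with other genes, in part pseudogenes. The 23 bright ones among them had a median of 0.67 between embryoid bodies and adherent cells, 22 of them above 0, and of -0.13 between neurospheres and R1 cells. Ribosomal protein genes have many processed pseudogenes, so a probe set of any member can hold signal from near-identical copies.

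Other genes of the translation machinery were read beside the members from lists chosen with earlier results of these data known. Over all features, as given above, limma called 8.20% higher and 11.9% lower in neurospheres. Of 51 ribosome assembly genes tested, 22 were called lower, 0 higher and 29 in neither direction, and the median was -0.95. The box C/D snoRNP protein Nop58 (-2.73), the assembly factor Tsr1 (-2.56), the nucleolar protein Surf6 (-2.49) and the nucleolar GTPase Gnl3 (-2.43) had the largest differences. Of 27 initiation factor genes, 9 were lower and 0 higher, with a median of -0.34. The eIF4E-binding repressor Eif4ebp1 (-2.75), Eif1a (-2.28), the eIF3 subunit Eif3j1 (-1.64) and the 60S anti-association factor Eif6 (-1.40) led this list.

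Genes with TOP tracts that are not ribosomal proteins were split. Of 14 tested, 5 were lower and 0 higher in neurospheres, with a median of -0.30. The nucleolar chaperone Npm1 had 23450, 21283 and 17624 on the R1 arrays and 6049 in neurospheres, and the poly(A)-binding protein gene Pabpc1 had 17537, 16908, 15597 and 6458. Both were lower in neurospheres without overlap, by -1.71 and -1.34, as were Hnrnpa1 (-1.33) and Eif4b (-1.17). The elongation factor gene Eef1a1 had 83343, 71191, 35599 and 75840, lowest on the adherent array like Rpl41, and was not called (adjusted p = 0.190).

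Of 59 mitochondrial ribosomal protein genes tested, which serve the separate ribosome of that organelle, 2 were called higher and 4 lower, both shares below those of all features, with a median of 0.21. In embryoid bodies against adherent cells this list had a median of -0.13, the assembly genes had -0.28 and the TOP factors 0.31, and none of their genes was called. Of 15 regulators tested from a list of Myc, mTOR and LARP genes, 3 were higher and 2 lower in neurospheres: the Myc antagonist Mxd4 (3.28) and the kinase genes Akt1 (2.66) and Akt2 (1.60) rose, and the Myc family gene Mycn (-5.28) and Larp1 (-1.26) fell. None of the 3 S6 kinase genes on the array was bright enough to be tested.

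**Figure D5:**
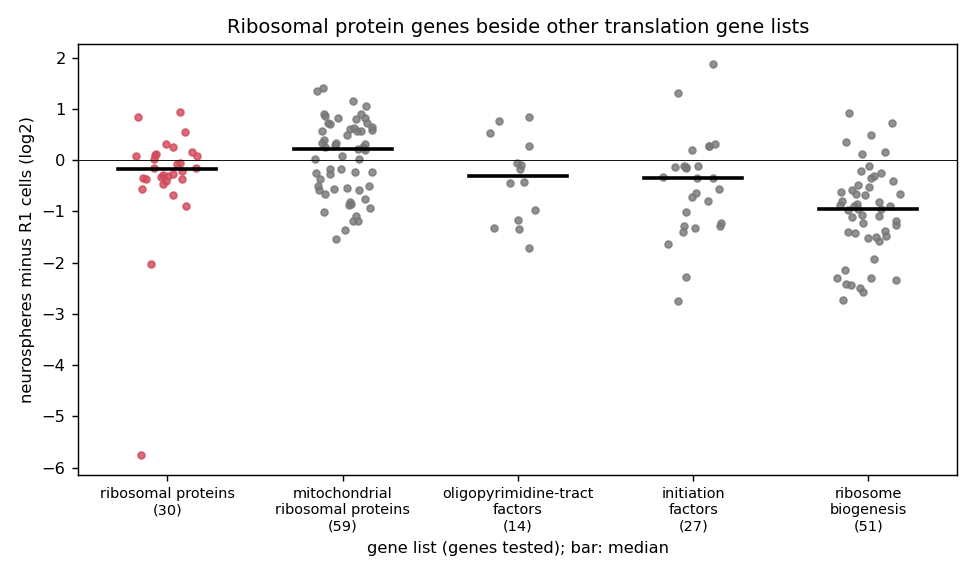
Neurospheres minus R1 cells (log2) for each tested gene of 5 lists, with a bar at the median. The cytosolic ribosomal proteins sit around a median of -0.18 with Rps4l at -5.75, and the ribosome assembly genes around -0.95.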

How the data were processed

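Values were the deposited intensity of each probe set on 4 MG_U74Av2 arrays, a linear signal from MAS5 per the submitters' processing notes. Its version, scaling target and settings were not given in the sources used here. Of 12488 probe sets, 66 controls were left out. The platform annotation, which can be old, paired 10833 of the rest with 1 gene, 396 with several and 1193 with none. Arrays were scaled to a trimmed mean of 500 (2% left out at each end), and 32 was added before log2, which understates changes of dim genes. Probe sets at or above the array median on at least 1 array were kept, the brightest per gene, which gave 6843 features. No detection calls were used.

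One limma model (limma 3.58.1, R 4.3.3; eBayes with trend) was fitted to 3 groups and tested on simulated data. The embryoid body arrays gave the 1 residual degree of freedom, the prior 17.34, and the single arrays were assumed to vary like them. The simulated noise had the same spread on all arrays, so the simulation could not test this assumption. P-values are two-sided, adjusted by Benjamini-Hochberg over all features at 0.05. Their number of arrays limits the precision. All arrays were scanned on the same day and station, so no scan batch was fitted. Alternatives changed the R1 arrays used, the filter, trend, added value, probe sets, scaling and replicates.

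Members and lists were chosen with earlier results of these data known. Named members were all called genes, the 5 largest and smallest differences per comparison, the 3 largest each way between the embryoid body arrays, and the paralogue, stalk and 5S lists (1 further list is not reported here); others named were chosen after their values were seen. From each other list, up to 4 called genes by size were named.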

Additional observations from a re-analysis of the deposited data

How the results depend on the processing

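The 4 members called between neurospheres and R1 cells became 1 (Rps4l) without the intensity trend. They became 2 with R1 cells as 1 group, in that fit without either embryoid body array, without the signal filter, and with plain probe sets alone. The last setting turned Rps4l to 0.86, and quantile normalization turned Rpl41 to -0.22. For the settings with 2 calls, the neurosphere counts over all features are not given here, so those 2 have no background share beside them. The median difference of -0.18 became -0.44 against embryoid bodies alone or the aggregation array alone (a setting chosen after seeing the data), -0.43 with array medians set equal, 0.18 against adherent cells alone and 0.26 with the median member set equal. Between embryoid bodies and adherent cells the median of 0.64 became 0.27 (medians equal), 0.14 (quantile) and 0.17 (median member equal). Over all features, neurospheres had 561 higher and 816 lower calls, which became 482 and 1205 with array medians equal, 1178 and 474 with the median member equal and 219 and 245 without the trend. Embryoid bodies had 18 and 6, which became 35 and 369, 8 and 183, and 0 and 0 under the same settings, and 0 and 0 without the filter; quantile normalization gave 12 and 2, the mean of all probe sets 1 and 1, and plain probe sets 2 and 2. Of the gene values under 15 alternatives for neurospheres, 425 kept their side of the threshold, 15 lost the call, 4 gained it and 2 reversed, and 23 genes changed sign under at least 1 alternative. All 326 under 11 alternatives for embryoid bodies stayed uncalled, and 10 genes changed sign under at least 1. No paired analysis was possible because the groups share no replicate numbers given by the labels. With no detection calls, signals near or below the array median cannot be told from background, and single arrays of 2 groups leave their own spread unmeasured.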
